A study of Homo sapiens with 4 samples.

Results

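LTAD cells given a control siRNA (siControl LTAD) were set against parental LNCaP cells, 1 array a side. The 2 arrays were taken from the 4 of the series by their labels, and the difference was the siControl level minus the LNCaP level after all 4 arrays had been quantile-normalized. LNCaP is an established, androgen-responsive prostate cancer cell line. LTAD is a line derived from LNCaP by long-term androgen deprivation. The siControl LTAD cells were transfected with a control siRNA and grown without phenol red in RPMI medium with 10% charcoal/dextran-treated serum, which is depleted of steroids. LNCaP cells were untransfected and had spent 24 h in phenol red-free medium with 2.5% treated serum, having been grown in full serum before. The other 2 arrays, untransfected LTAD in the same 10% treated serum and LTAD given an siRNA against PSF (the protein of SFPQ), are used only for values beside this comparison. All 4 samples thus came from medium low in androgen. Transfection, line, serum share and length of hormone withdrawal cannot be told apart in the siControl against LNCaP difference. Any array batch, which the sources used here do not record, cannot be told apart from them either. The siRNA sequence and dose, the time after transfection, the number of passages and whether LTAD is a clone are not given in the sources used here. With 1 array in each group there was no replicate error and no test, so each difference below compares those arrays and not the conditions.

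The androgen receptor is a steroid-activated transcription factor. In luminal prostate cells it switches on secreted proteases such as prostate-specific antigen (KLK3), surface proteins, and genes of lipid synthesis. Prostate cancer cells kept without androgen can keep growing, and lines made this way serve as models of hormone therapy resistance. Other programmes that such cells can draw on, among them secreted growth factors, stress responses and neural genes, are known from the field and are grouped below by function.

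Levels are log2 values per gene after normalization, and a difference of 1 is 2-fold. Of 18417 named genes, 9763 were kept because the siControl or the LNCaP array reached 7.23 for them, which was the median gene value. A reading below that value was not shown to be above background, so where the dimmer array was below it the log2 readings are given with no fold. The deposited columns were not on a common scale: their probe set medians were 5.98 (siControl LTAD) and 6.91 (LNCaP). The siControl array stood close to the siPSF array (Pearson r = 0.98 over the kept genes, 75 genes at least 2-fold apart) and apart from both untransfected arrays. It differed at 2-fold or more from LNCaP in 542 genes (r = 0.898) and from untransfected LTAD, the same line, in 986 genes (r = 0.878), while untransfected LTAD and LNCaP differed in 489 (r = 0.929). These correlations are across genes, which are not independent replicates.

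The luminal prostate markers analysed were above the filter value on every array, except KLK3 in siPSF LTAD. KLK3 read 12.89 in LNCaP, 7.47 in siControl LTAD and 7.11 in siPSF LTAD. The surface antigen SLC45A3 read 10.05 in LNCaP and 8.29 in siControl LTAD. FOXA1 and HOXB13, transcription factors that work with the androgen receptor, read 11.57 and 10.93 in siControl LTAD and 11.64 and 10.70 in LNCaP. The luminal keratins KRT8 and KRT18 and the adhesion protein EPCAM read 11.84, 11.31 and 11.49 in siControl LTAD, against 12.07, 11.60 and 11.08 in LNCaP. Another 4 luminal markers, the androgen receptor gene among them, are not analysed here. Of 25 measured markers of stromal, endothelial and immune cells, 1 reached the filter value in siControl LTAD and in LNCaP. It was CD68, a lysosomal protein of macrophages and other cells, at 7.57 and 8.70. The list's median level was 5.46 in siControl LTAD, 5.15 in LNCaP and 5.30 in untransfected LTAD, all below the filter value. SFPQ read 11.23 in siControl LTAD, 10.83 in LNCaP, 10.82 in untransfected LTAD and 9.87 in siPSF LTAD, so the array with the siRNA against it held the lowest reading.

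Against LNCaP, 259 genes were at least 2-fold higher in siControl LTAD (2.65% of those kept) and 283 at least 2-fold lower (2.9%). By the readings the lower genes reached further: 89 of them were at least 4-fold lower and 41 at least 8-fold, against 45 and 12 of the higher genes. Most of the largest differences had the dimmer array below the filter value, so those folds were not established. With both arrays at or above it, only KLK3, EHF, SLC44A4 and ATP2B1 were at least 8-fold lower. No gene was 8-fold higher there. Small RNA and olfactory receptor genes were not looked at for these 2 statements. In 125 of the higher and 142 of the lower genes the dimmer array was below the filter value. The split depended on the scale. Of all genes 2-fold apart, 47.8% were higher after quantile normalization. On the deposited values 46 were higher and 2499 lower (1.81% higher), where the median difference of all kept genes was -0.72 in place of 0.06. With each array centred on its median, 466 were higher and 237 lower (66.3% higher), with a median of 0.25.

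Untransfected LTAD was on the same side of LNCaP for 160 of the 259 higher genes (61.8%) and for 191 of the 283 lower genes (67.5%). Over all kept genes, untransfected LTAD was above LNCaP in 49.2% and below it in 50.8%. At 2-fold or more, 43 of the higher genes (16.6%) and 84 of the lower genes (29.7%) were shared, where the background shares of untransfected LTAD were 1.46% higher and 3.54% lower. These shared genes were 30.1% and 24.3% of the kept genes that untransfected LTAD had 2-fold higher and lower. Genes bright only in untransfected LTAD were not among those kept, since the filter read the siControl and LNCaP arrays. Both differences subtract the same LNCaP array, so a high or low reading there enters both, and the counts are a description. The higher genes had a median difference of 1.30 in siControl LTAD and of 0.18 in untransfected LTAD, and that of the lower genes -1.58 and -0.38. On the other side of LNCaP by 2-fold or more in untransfected LTAD lay 9 higher genes (3.47%) and 15 lower ones (5.30%). The background shares for these were 3.54% (untransfected LTAD lower) and 1.46% (higher), so the share of the 9 was near background.

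**Figure D1:**
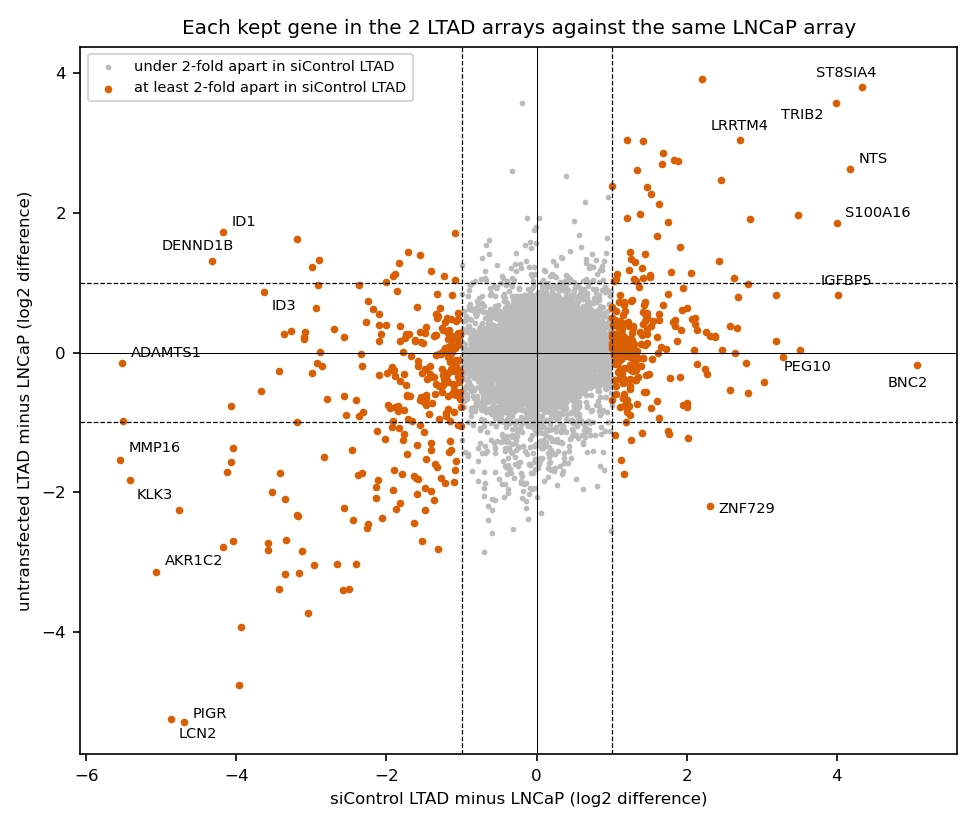
Each point is a kept gene, placed by its log2 difference from LNCaP in siControl LTAD (horizontal axis) and in untransfected LTAD (vertical axis); orange points are the 542 genes at least 2-fold apart in siControl LTAD and dashed lines mark 2-fold. LCN2 and PIGR lie low on both axes, ST8SIA4 and TRIB2 high on both, BNC2 and ADAMTS1 near 0 on the vertical axis, and ID1 and DENND1B above LNCaP in untransfected LTAD but below it in siControl LTAD.

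The lowest genes were of 3 kinds by their level in untransfected LTAD. The kinds were sorted by eye after the values were seen. The first kind read about as low in untransfected as in siControl LTAD, below the filter value in both. LCN2, an iron-siderophore-binding protein of innate defence, read 11.07 in LNCaP, 6.20 in siControl LTAD, 5.82 in untransfected LTAD and 6.73 in siPSF LTAD. PIGR, the receptor that carries polymeric immunoglobulins across epithelia, read 10.47 in LNCaP against 5.78, 5.18 and 5.99 in the same 3 LTAD arrays. LNCaP alone was above the filter value for both genes. CCL20, a chemokine of mucosal surfaces, read 8.76 in LNCaP, 4.80 in siControl LTAD and 4.0 in untransfected LTAD. PLA2G4A, the cytosolic phospholipase that frees arachidonic acid, read 7.89, 3.96 and 3.97 in the same order. For these 4 genes the siControl and untransfected LTAD readings lay within 1 log2 unit of each other.

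The second kind had a reading in untransfected LTAD between the other two. KLK3 read 12.89 in LNCaP, 11.06 in untransfected LTAD, 7.47 in siControl LTAD and 7.11 in siPSF LTAD. Its siControl level was 42.8-fold below LNCaP (log2 difference -5.42), with both arrays above the filter value, and the transfected arrays lay well below the untransfected one. AKR1C2, a reductase that inactivates dihydrotestosterone, read 10.61 in LNCaP, 7.47 in untransfected LTAD and 5.54 in siControl LTAD. Its neighbour AKR1C1 read 9.30, 7.93 and 5.26, but its 2 probe sets gave differences of -4.04 and -0.10, and the near-identical sequences of these genes make each value uncertain. MMP16, a membrane-bound matrix metalloproteinase, read 9.86, 8.32 and 4.31, and its other probe set gave a difference of -6.22. GASK1B, a Golgi-associated protein, read 10.94, 8.68 and 6.17, and TM4SF1, a surface protein of the tetraspanin-like family, 9.84, 7.05 and 5.66. In each of these 6 genes untransfected LTAD lay between LNCaP and siControl LTAD.

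The third kind was low only on the transfected arrays. ADAMTS1, a secreted protease of the matrix, read 11.34 in LNCaP and 11.19 in untransfected LTAD but 5.82 in siControl LTAD and 6.44 in siPSF LTAD. ID1 and ID3 are targets of bone morphogenetic protein (BMP) signalling that block the DNA binding of helix-loop-helix factors. ID1 read 10.24 in LNCaP, 11.96 in untransfected LTAD, 6.06 in siControl LTAD and 5.89 in siPSF LTAD. ID3 read 9.85, 10.72, 6.21 and 6.10 in that order. Both were thus above LNCaP in untransfected LTAD and below the filter value after either transfection. DENND1B, an exchange factor for RAB35, read 8.69 in LNCaP, 10.01 in untransfected LTAD and 4.37 in siControl LTAD, with a difference of -4.91 at its second probe set. ATP1B1, the beta subunit of the sodium pump, read 11.27, 10.50 and 7.19. Transfection and any array batch, which is not recorded, cannot be told apart in these readings. Over the 20 lowest genes, with differences of -5.55 to -3.64, untransfected LTAD was below LNCaP in 17 and at least 2-fold below in 13. In 19 of them siControl LTAD was below the filter value, KLK3 being the exception.

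The highest genes divided in the same way. ST8SIA4, which builds polysialic acid on neural adhesion molecules, read 10.44 in siControl LTAD, 9.90 in untransfected LTAD and 6.11 in LNCaP. TRIB2, a pseudokinase, read 8.46 and 8.06 on the 2 LTAD arrays and 4.48 in LNCaP, and LRRTM4, a synaptic adhesion protein, 7.77, 8.11 and 5.07. These 3 were bright in LTAD with or without transfection. NTS, the precursor of the peptide neurotensin, read 7.31 in siControl LTAD, 5.75 in untransfected LTAD, 5.52 in siPSF LTAD and 3.13 in LNCaP, so only the siControl array put it above the filter value. S100A16, a calcium-binding protein, read 10.28, 8.13 and 6.28 in siControl LTAD, untransfected LTAD and LNCaP. TSHZ3, a zinc-finger homeodomain protein, read 8.85, 7.33 and 5.37. BNC2, the highest of all by difference (5.07), is a zinc-finger protein that read 9.36 in siControl LTAD and 8.14 in siPSF LTAD but 4.11 in untransfected LTAD and 4.28 in LNCaP. PEG10, an imprinted gene derived from a retrotransposon, read 8.49, 8.30, 5.01 and 4.98 in that order, and BMP7, a secreted BMP, 8.15, 7.88, 4.80 and 4.87. For BNC2, PEG10 and BMP7 the untransfected LTAD and LNCaP readings were alike and below the filter value. IGFBP5, a secreted binding protein of insulin-like growth factors, read 8.61 in siControl LTAD, 9.47 in siPSF LTAD, 5.42 in untransfected LTAD and 4.60 in LNCaP. The other members of the top 20 were PASD1, PRSS1, LRRN1, SAGE1, FSD1, S100A14, SRPX, PREX2, TMTC1 and LIN7A, at differences of 2.64 to 3.19. Of all 20, untransfected LTAD was above LNCaP in 14 and at least 2-fold above in 8, and in 18 the LNCaP reading was below the filter value.

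**Figure D2:**
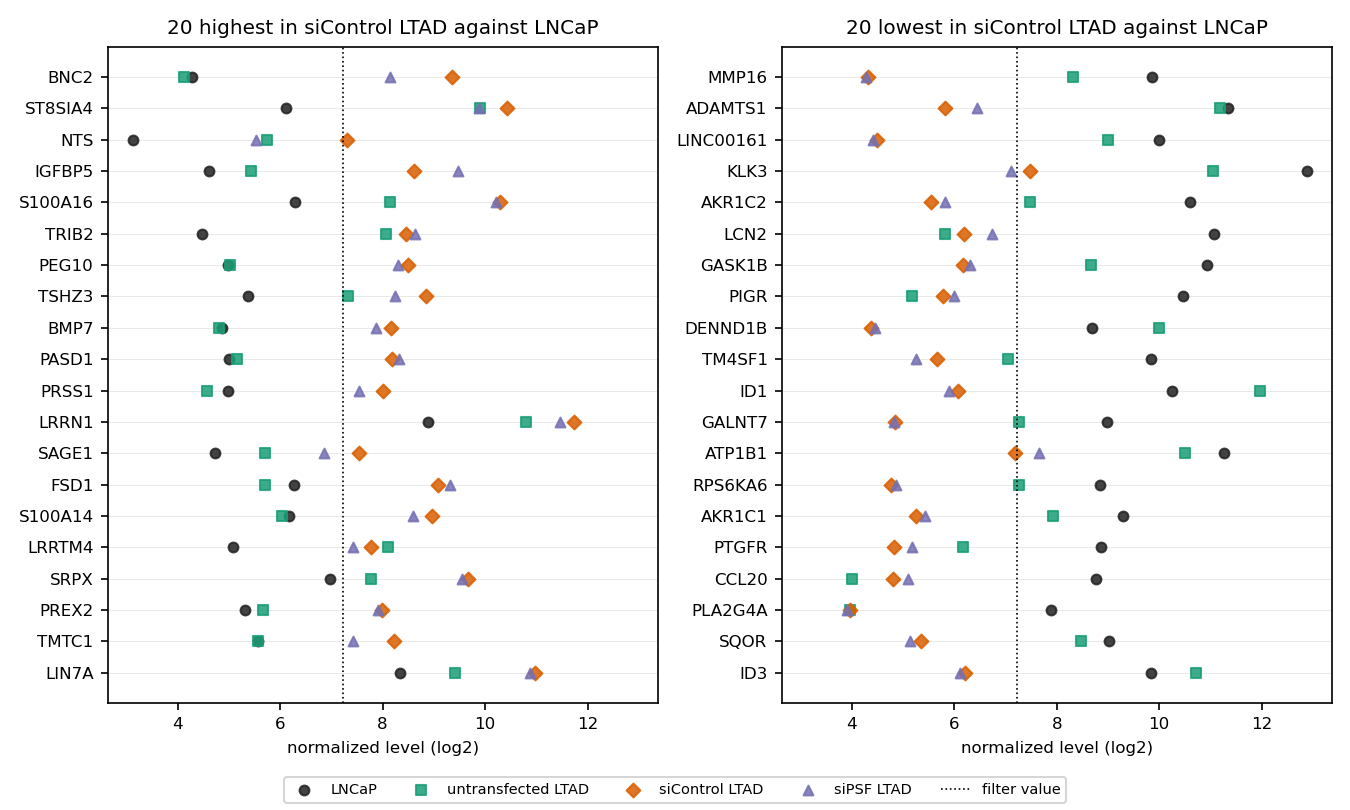
Normalized log2 level of the 20 genes highest (left) and lowest (right) in siControl LTAD against LNCaP, with 1 point for each of the 4 arrays and the filter value dotted. siControl and siPSF LTAD lie close together in most rows, while untransfected LTAD (squares) lies with LNCaP for BNC2, PEG10, BMP7 and ADAMTS1, with siControl LTAD for TRIB2, LCN2 and PIGR, and beyond LNCaP for ID1, ID3 and DENND1B.

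Among the 8726 genes at or above the filter value on both arrays, 134 were 2-fold or more higher in siControl LTAD and 141 as much lower, and these can be read as folds. LRRN1, a neural leucine-rich repeat protein, read 11.74 in siControl LTAD, 10.80 in untransfected LTAD and 8.89 in LNCaP, 7.18-fold higher. LIN7A, a scaffold of cell junctions, read 10.98, 9.41 and 8.34, which was 6.22-fold higher. FXYD5, a regulator of the sodium pump, read 9.93, 7.73 and 7.35, and LGALS1, the sugar-binding protein galectin 1, 10.00, 8.03 and 7.74. These last 2 were 5.97-fold and 4.79-fold higher in siControl LTAD but under 2-fold apart between untransfected LTAD and LNCaP. TSPAN7, a tetraspanin, read 10.55 in siControl LTAD, 11.47 in untransfected LTAD and 8.71 in LNCaP. PLXDC2 (10.31, 11.48 and 8.62) and the tubulin TUBA1A (10.90, 11.39 and 9.27) shared that order, with the highest reading in untransfected LTAD. The probe sets of SNRPG differed, from 0.46 to 1.77, and those of ATP5MK gave 1.43 to 2.13. Untransfected LTAD was on the same side for 16 of the 20 highest such genes and at least 2-fold higher for 8.

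On the lower side, KLK3 was followed by EHF, an epithelial ETS factor, which read 8.13 in siControl LTAD, 9.66 in untransfected LTAD and 11.65 in LNCaP (11.5-fold lower). SLC44A4, a choline transporter family protein, read 7.60, 8.84 and 10.94 (10.2-fold lower). For both, untransfected LTAD lay in the middle and was at least 2-fold below LNCaP. ATP2B1, a calcium pump of the plasma membrane, read 7.55, 9.75 and 10.74, and SAT1, which acetylates polyamines, 8.45, 10.57 and 11.24. ASPH, an aspartyl hydroxylase, read 8.19 in siControl LTAD, 7.31 in untransfected LTAD and 10.69 in LNCaP, and RPS6KA3, a kinase downstream of ERK, 7.84, 7.89 and 9.97. Those last 2 were low in both LTAD arrays. PRKACB, a catalytic subunit of protein kinase A, read 9.72 in siControl LTAD but 12.50 in untransfected LTAD and 12.28 in LNCaP, low after transfection alone. Of the 20 lowest such genes, at -5.42 to -1.93, untransfected LTAD was on the same side for 17 and at least 2-fold lower for 9.

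Gene lists describe which functions these genes belong to. Each count below is read against the background of 2.65% higher and 2.9% lower, and each list median against the median of all kept genes, 0.06 in siControl LTAD and -0.01 in untransfected LTAD. Another scale shifts all genes together, so signs of differences under 2-fold hold for quantile-normalized values, and a list is read relative to all kept genes.

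Androgen-induced genes were mostly lower. Of 35 measured, 27 were kept, 11 of those were at least 2-fold lower and none was 2-fold higher, with 21 below 0 (43.7% of all kept genes were) and a median of -0.79. In untransfected LTAD the median was -0.20, 9 of the 11 were on the same side and 5 at 2-fold or more. Of the 11, AGR2, ELL2, CRISP3 and ALDH1A3 were kept only through their LNCaP level. After KLK3 came AGR2, a disulfide isomerase of secretory cells, which read 4.89 in siControl LTAD, 9.69 in untransfected LTAD and 8.08 in LNCaP, so the 2 LTAD arrays lay on opposite sides of LNCaP. HERC3, a ubiquitin ligase, read 7.69, 9.82 and 10.02, close to LNCaP without transfection. CRISP3, a secreted protein of the prostate, read 6.0, 5.74 and 8.25, and ABCC4, a drug and nucleotide exporter, 9.13, 8.94 and 10.73. Those 2 were equally low in both LTAD arrays. ELL2, an elongation factor, read 7.18, 8.64 and 9.49, SLC45A3, the surface antigen prostein, 8.29, 9.23 and 10.05, and PMEPA1, a negative regulator of TGF-beta signalling, 7.71, 8.58 and 9.64. In these 3, as in KLK3, untransfected LTAD lay in the middle. The kallikreins KLK2 and KLK4, next to KLK3 on chromosome 19, were 0.86 and 0.55 lower by log2 in siControl LTAD. KLK2 read 8.45 there, 9.35 in untransfected LTAD and 9.31 in LNCaP. Of 26 kept pioneer factors and receptor cofactors, none was 2-fold higher and 1 was 2-fold lower, the corepressor TLE1, at 7.03 in siControl LTAD, 9.77 in untransfected LTAD and 8.89 in LNCaP. TLE1 was kept only through LNCaP, so the filter fixed its side. The list median was 0.03.

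Of 7 kept genes known to be repressed by androgen, 3 were 2-fold or more higher and 4 lower. LRRN1, ACKR3 (7.35 in siControl LTAD, 5.30 in untransfected LTAD and 5.26 in LNCaP), a scavenger receptor of the chemokine CXCL12, and ST7 (10.99, 10.21 and 9.77) were higher. ADAMTS1, DDC, TMEFF2 and UGT2B17 were lower, of which TMEFF2, a surface protein of prostate cells, was as low in untransfected LTAD (6.89, 6.53 and 8.77). These 4 were kept only through LNCaP and ACKR3 only through siControl LTAD, so the filter fixed their sides. The list median, -1.07, changed sign against all kept genes under other filters. Among 14 kept enzymes that make or inactivate steroids, 4 were at least 2-fold lower and none was 2-fold higher: AKR1C2, AKR1C1, HSD17B12 (8.14, 9.0 and 9.34) and UGT2B17 (6.36, 7.32 and 7.43). AKR1C2, AKR1C1 and UGT2B17 were kept only through LNCaP and so had to be lower in siControl LTAD. UGT2B17, which glucuronidates androgens, has near-identical paralogs. SRD5A1, the 5-alpha reductase, read 8.93, 9.09 and 9.15 and POR, the electron donor of microsomal P450 enzymes, 9.82, 9.09 and 8.88, both under 2-fold apart.

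A stretch of the KLK3 promoter is shown because KLK3 was the lowest gene measured above the filter value on both arrays. It is RefSeq sequence of GRCh38.p14, chr19:50854695-50854814, plus strand, with its hexamer 170 bases before the start of transcription, and capitals mark the hexamer AGAACA, the core letters of a steroid receptor element.

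KLK3: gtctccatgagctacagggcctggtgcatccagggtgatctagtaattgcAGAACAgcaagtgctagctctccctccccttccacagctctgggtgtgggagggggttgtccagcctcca

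The hexamer, searched on both strands from 250 bases before to 50 bases after each start, was in 4 of 33 promoters (12.1%) of the 21 androgen-induced genes matched, against 14.8% of all 35116 promoters. The full palindromic androgen response element was in none of the 33 and in 0.0655% of all. A match is a description of letters, and most androgen receptor binding is known to lie outside such short windows.

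Several genes of mucosal defence and inflammation that were bright in LNCaP were near background in both LTAD arrays. Only 12 of 43 measured members were kept, and 11 of them were at least 2-fold lower, with a median of -3.01 in siControl LTAD and -3.10 in untransfected LTAD. In 10 of the 11 untransfected LTAD was also at least 2-fold lower. Beside LCN2, PIGR, CCL20 and PLA2G4A these were CP, the plasma copper protein (4.28 in siControl LTAD, 4.33 in untransfected LTAD and 7.71 in LNCaP), and MMP7, an epithelial metalloproteinase (4.02, 4.21 and 7.38). They also held the death ligand TNFSF10 (4.66, 4.30 and 7.33), the cytokine TNFSF15 (6.41, 6.62 and 8.55), and the protease inhibitors PI3 (6.06, 5.82 and 7.64) and SLPI (8.06, 7.29 and 9.55). In all of these LNCaP held the highest reading. Of the 12, 9 were kept only through their LNCaP level and so had to be lower in siControl LTAD, which fixes the sign of the count and of the siControl median. They describe the members kept and not the list, whose median over all 43 measured was -0.27. PLA2G2A, a secreted phospholipase, went the other way in untransfected LTAD (8.19 in siControl LTAD, 11.34 in untransfected LTAD and 9.90 in LNCaP), and the complement protease C1R read 8.31, 8.61 and 8.20. Among 13 kept genes of NF-kB signalling, 3 were at least 2-fold lower and 1 higher. NFKBIA, the inhibitor that NF-kB itself induces, read 9.32, 10.43 and 10.73, and NFKB1, the p50 subunit precursor, 8.45, 10.04 and 9.79. NFKBIZ, a nuclear inhibitor family member, read 5.86, 8.80 and 7.41, and TNFAIP2, an induced cytoplasmic protein, 8.23, 6.41 and 6.73. For none of these 4 did untransfected LTAD share the 2-fold difference. NFKBIZ was kept only through LNCaP and TNFAIP2 only through siControl LTAD, so the filter fixed their sides. The letters GGGANTTCC, an NF-kB site, were in none of 12 promoters of the 9 mucosal genes matched and in 1.85% of all promoters. Interferon response genes, which double-stranded RNA can induce, gave no 2-fold difference in either direction among 14 kept of 38 measured (median -0.21), from UBE2L6 at -0.80 to RIGI at 0.85. The sign of that median against all kept genes changed under a stricter filter.

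Cholesterol genes were higher together in siControl LTAD. These genes are induced by the factor SREBF2 when sterol runs low. Of 21 measured, 19 were kept, 17 were above 0 (56.3% of all kept genes were), 5 were at least 2-fold higher and none 2-fold lower, with a median of 0.69. In untransfected LTAD the median was 0.08, and of the 5 genes 3 were on the same side and 1 at 2-fold or more. INSIG1, the sterol-regulated anchor of the SREBP complex, read 9.49 in siControl LTAD, 8.56 in untransfected LTAD and 8.04 in LNCaP. SQLE, squalene epoxidase, read 10.78, 9.38 and 9.44, and HMGCS1, which makes HMG-CoA, 9.91, 8.56 and 8.80. SQLE and HMGCS1 were thus 2-fold apart from LNCaP in siControl LTAD but not in untransfected LTAD, nor in siPSF LTAD, where they read 10.02 and 9.16. SREBF2 itself read 9.87, 9.26 and 8.73, and LSS, lanosterol synthase, 8.78, 8.77 and 7.74, as high without transfection as with it. In siPSF LTAD the list median was 0.36. Of 23 kept genes of fatty acid and lipid synthesis, 4 were 2-fold or more higher and 1 lower (median 0.28 here and 0.15 in untransfected LTAD). SCD, the stearoyl-CoA desaturase, read 11.97, 10.94 and 10.03, LPIN1, a phosphatidate phosphatase, 10.29, 9.30 and 8.61, and SCD5, a second desaturase, 8.67, 7.29 and 7.06. The remaining higher gene was MLXIPL (7.43, 6.27 and 5.80). SCD5 and MLXIPL were kept only through siControl LTAD and so could only be higher there. ELOVL7, a fatty acid elongase, read 7.89, 7.14 and 9.0.

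The sterol regulatory element TCACNCCAC, searched on both strands, was in 1 of 22 promoters (4.55%) of the 17 cholesterol genes matched and in 1.13% of all. The match was in SREBF2 itself, shown with the element in capitals (GRCh38.p14, chr22:41832922-41833041, plus strand).

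SREBF2: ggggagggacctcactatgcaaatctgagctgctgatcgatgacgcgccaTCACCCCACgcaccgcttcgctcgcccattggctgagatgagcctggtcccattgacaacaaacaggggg

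Genes of the integrated stress response and of amino acid supply, which the factor ATF4 induces, were mostly less than 2-fold from LNCaP in siControl LTAD. Of 34 measured, 29 were kept, 23 were above 0 (56.3% of all kept genes were), and none was 2-fold lower. At least 2-fold higher was 1 gene (3.45%), a share near the background of 2.65%. The median was 0.45 in siControl LTAD, 0.46 in siPSF LTAD and -0.45 in untransfected LTAD. ASNS, asparagine synthetase, read 10.48 in siControl LTAD, 8.29 in untransfected LTAD and 9.29 in LNCaP, and was 2.28-fold above LNCaP. PSAT1, of serine synthesis, read 11.33, 9.24 and 10.35, SLC1A4, a neutral amino acid transporter, 8.60, 7.21 and 7.64, and CEBPB, a partner of ATF4, 9.40, 8.08 and 8.44. CHAC1, which degrades glutathione, read 8.93, 7.12 and 8.24, and the glycine tRNA synthetase GARS1 12.02, 10.46 and 11.30. In each of these 6 genes LNCaP lay between the 2 LTAD arrays. ATF4 itself read 11.19, 10.85 and 11.21, and DDIT3, a stress-induced factor, 9.27, 8.99 and 9.12. Chaperones and sensors of the unfolded protein response, a related pathway of the endoplasmic reticulum, gave no 2-fold difference among 24 kept (17 above 0, median 0.22), from EDEM1 at -0.79 to HSPA5 at 0.81.

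The C/EBP-ATF element TGATGNAA was in 8 of 39 promoters (20.5%) of the 25 matched genes of this list, against 3.62% of all promoters, both strands searched. The 8 genes were ASNS, CHAC1, GARS1, AARS1, SLC1A4, SLC1A5, SLC3A2 and SLC7A1. Stretches of 120 bases from 4 of these are shown to let the element be compared, with its letters in capitals, on either strand, so that CHAC1, GARS1 and AARS1 show the reverse complement. They are RefSeq sequence of GRCh38.p14, each 5′ to 3′ along its gene: ASNS chr7:97872409-97872528 (minus), CHAC1 chr15:40953221-40953340 (plus), GARS1 chr7:30594758-30594877 (plus) and AARS1 chr16:70289624-70289743 (minus).

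ASNS: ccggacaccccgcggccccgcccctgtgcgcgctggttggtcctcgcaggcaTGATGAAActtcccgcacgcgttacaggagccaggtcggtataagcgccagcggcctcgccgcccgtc

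CHAC1: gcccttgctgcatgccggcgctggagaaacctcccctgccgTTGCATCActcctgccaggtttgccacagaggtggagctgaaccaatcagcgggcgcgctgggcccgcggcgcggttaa

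GARS1: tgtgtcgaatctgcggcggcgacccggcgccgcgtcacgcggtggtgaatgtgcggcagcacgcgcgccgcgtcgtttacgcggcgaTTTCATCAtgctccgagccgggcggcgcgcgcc

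AARS1: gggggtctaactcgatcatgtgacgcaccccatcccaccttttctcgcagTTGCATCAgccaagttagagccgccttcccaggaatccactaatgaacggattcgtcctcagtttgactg

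The element starts 68 bases before the transcription start in ASNS, 209 in CHAC1, 33 in GARS1 and 187 in AARS1. Their differences in siControl LTAD were 1.19, 0.69, 0.72 and 0.21, and in untransfected LTAD -1.0, -1.12, -0.84 and -0.38.

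**Figure D3:**
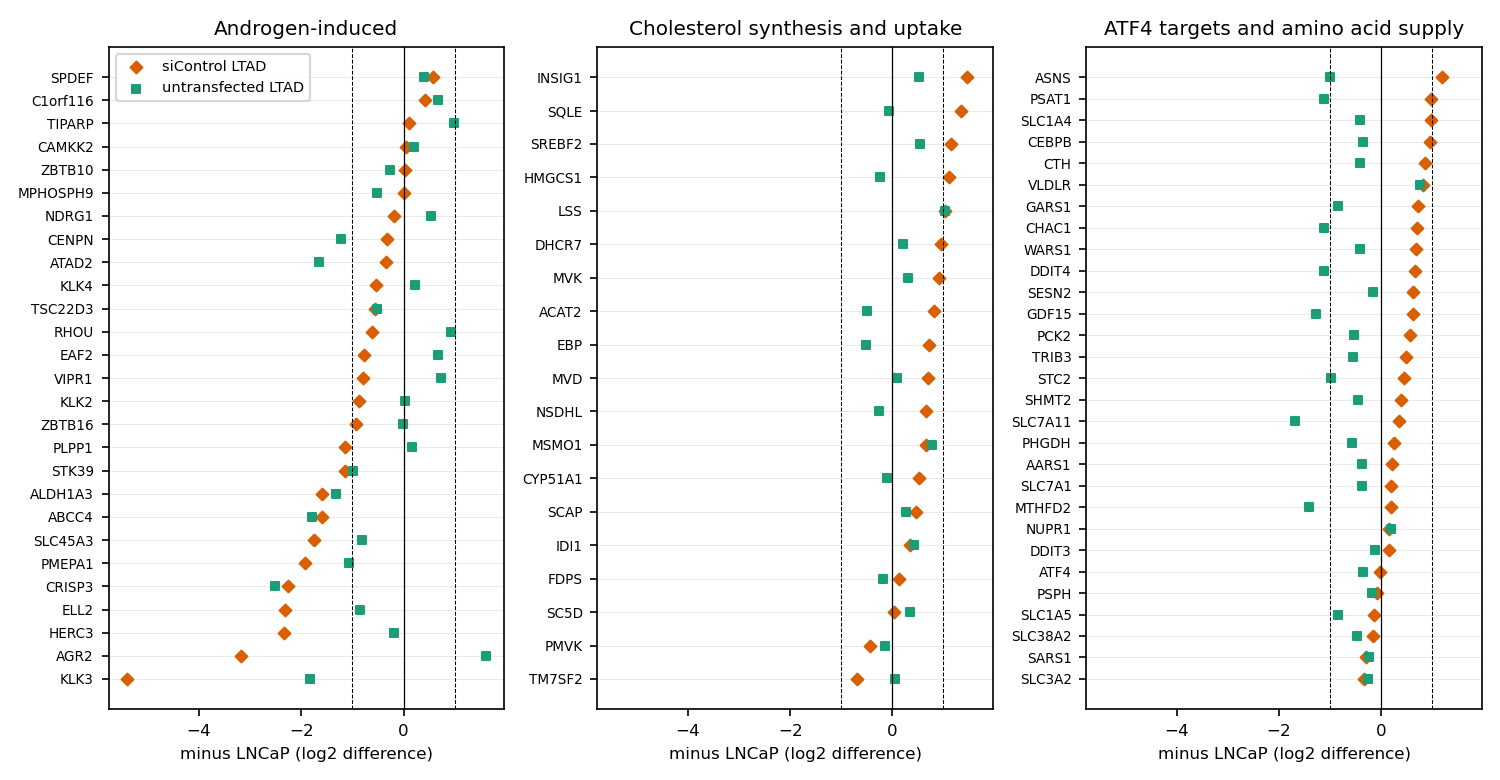
Log2 difference from LNCaP of each kept member of 3 lists in siControl LTAD (diamonds) and untransfected LTAD (squares), with dashed lines at 2-fold. Androgen-induced genes reach down to KLK3 at -5.42, cholesterol genes lie mostly right of 0 in siControl LTAD, and most ATF4 targets lie right of 0 in siControl LTAD and left of 0 in untransfected LTAD.

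Proliferation genes were near LNCaP in siControl LTAD. Of 39 kept genes of G2/M and mitosis, 1 was at least 2-fold higher and none lower (median 0.16), while in untransfected LTAD the median was -1.23 and 28 were at least 2-fold lower. The higher gene was CKS2, a cyclin-dependent kinase subunit, at 12.35 in siControl LTAD, 10.35 in untransfected LTAD and 10.92 in LNCaP. Of 39 kept DNA replication genes, 1 was higher and 1 lower (median -0.09), against a median of -1.25 and 25 lower genes in untransfected LTAD. RFC4, of the clamp loader, read 11.12, 8.79 and 9.59, and FEN1, the flap endonuclease, 8.31, 7.72 and 9.40. The untransfected LTAD array thus differed from LNCaP in these lists and the siControl array hardly did. Homologous recombination and checkpoint genes followed the same order of medians (-0.17 in siControl LTAD and -0.89 in untransfected LTAD over 21 kept), with the kinase ATM alone 2-fold lower. Among 26 kept G1/S genes 2 were 2-fold higher, MYBL1 at 1.26 and CDKN2A, the p16 and ARF gene, at 1.07. MYBL1 was kept only through siControl LTAD, which fixed its side. Genes of MYC and ribosome biogenesis were above 0 in 25 of 33 (median 0.26, with -0.32 in untransfected LTAD), with RRS1 alone 2-fold higher and MYC at 0.69. Of 31 kept replication-dependent histone genes, which share near-identical sequence, 3 were higher and 2 lower (median -0.31).

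Some secreted growth factors and binding proteins were among the most distant genes. Of 22 kept growth factor, receptor and feedback genes, 4 were at least 2-fold higher and 4 lower (median -0.14). The binding proteins of insulin-like growth factors went in opposite directions. IGFBP2 read 10.18 in LNCaP, 10.61 in untransfected LTAD and a further 1.39 above that in siControl LTAD (3.53-fold above LNCaP). IGFBP3 read 7.55 in siControl LTAD, 11.77 in untransfected LTAD and 10.55 in LNCaP, and was 7.97-fold lower in siControl LTAD. IGFBP5 was high on the transfected arrays only. The receptor IGF1R read 6.91 in siControl LTAD, 6.61 in untransfected LTAD and 8.24 in LNCaP, low in both LTAD arrays. In the same order EGFR read 7.90, 8.59 and 9.17, and FGFR2 7.76, 6.39 and 5.76. DUSP4, an ERK phosphatase, read 6.4, 5.59 and 8.03. IGFBP5 and FGFR2 were kept only through siControl LTAD, and IGF1R and DUSP4 only through LNCaP, so the filter fixed their sides. Of 32 kept genes of BMP, TGF-beta and WNT signalling, 3 were higher and 3 lower (median 0.00, against 0.22 in untransfected LTAD). BMP7 and the BMP antagonist CHRDL1 (7.36, 5.29 and 5.05) were higher, as was NOTUM, an inhibitor of WNT ligands, at 1.12. ID1, ID3 and the pseudoreceptor BAMBI (8.59, 9.65 and 11.05) were lower. BMP7 and CHRDL1 were kept only through siControl LTAD, and ID1 and ID3 only through LNCaP, so the filter fixed their sides. ID2, of the same family as ID1 and ID3, read 9.05, 10.74 and 9.19, so siControl LTAD lay with LNCaP there.

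Neural adhesion and guidance genes, 26 of the 9763 kept, held 5 of the 43 higher genes that untransfected LTAD shared at 2-fold. Of 64 measured, 26 were kept, 5 were at least 2-fold higher and 3 lower (median 0.29, and 0.38 in untransfected LTAD). All 5 were at least 2-fold higher in untransfected LTAD too: LRRN1, LRRTM4, the teneurin TENM2 (8.01 in siControl LTAD, 8.03 in untransfected LTAD and 5.55 in LNCaP), the neuroligin NLGN1 (9.71, 9.78 and 8.12) and the SLIT receptor ROBO1 (10.02, 10.21 and 8.78). TENM2 and NLGN1 read within 0.1 of each other in the 2 LTAD arrays. LRRTM4 and TENM2 were kept only through siControl LTAD and so could only be higher there. The 3 lower genes were not 2-fold lower in untransfected LTAD. The adhesion molecule NCAM2 read 9.13, 11.46 and 11.47, the ephrin receptor EPHA3 7.26, 10.37 and 9.10, and the semaphorin SEMA3C 9.65, 10.88 and 11.07. The sign of the list median against all kept genes changed under the stricter filter. Of 32 neuroendocrine and neural lineage markers, 8 were kept and 2 were at least 2-fold higher, NTS and PEG10. Both were kept only through siControl LTAD and so could only be higher there. The defining markers CHGA and SYP were below the filter value in every array, at 5.28 and 5.69 in siControl LTAD and 5.06 and 5.37 in LNCaP. SYT4, a synaptotagmin, was among the brightest of the list at 13.17 in siControl LTAD, 11.42 in untransfected LTAD and 13.01 in LNCaP.

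Epithelial markers were mostly a little lower, and of the mesenchymal genes 3 were 2-fold higher while FN1 was lower. Of 26 kept genes of epithelial adhesion and luminal keratins, 19 were below 0 and EHF alone was 2-fold lower (median -0.26, with 0.06 in untransfected LTAD). CDH1, E-cadherin, read 12.05 in siControl LTAD and 12.06 in LNCaP, and untransfected LTAD was 0.06 below LNCaP. Of 8 kept mesenchymal genes of 24 measured, 3 were at least 2-fold higher: LGALS1, the intermediate filament protein VIM (9.03, 7.15 and 7.84) and the membrane linker MSN (10.50, 9.25 and 9.21). Without transfection VIM was below LNCaP. FN1, fibronectin, the brightest kept member, went the other way (11.69, 12.70 and 12.54), and FOXC2 was at -0.10. SNAI2, ITGA5 and TWIST1 were above LNCaP by less than 2-fold. TWIST1, a factor of epithelial-mesenchymal transition, read 7.73, 8.41 and 7.08. CDH2, N-cadherin, was below the filter value at 4.65, 4.87 and 4.62. Of 9 kept cadherin genes, 2 were 2-fold lower, the desmosomal DSC3 (-3.05) and CDH26 (-2.25), and both were lower in untransfected LTAD as well (-3.73 and -2.45). Both were kept only through LNCaP and so had to be lower in siControl LTAD. Surface and secreted antigens of the prostate that are followed as markers or targets had 5 of 18 kept genes at least 2-fold lower and none 2-fold higher (median -0.53). These were KLK3, SLC44A4, TMEFF2, SLC45A3 and NECTIN4 (6.58, 7.86 and 7.80). TMEFF2 and NECTIN4 were kept only through LNCaP.

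Cancer-testis genes, silent in most adult tissues outside the germline, went both ways. Of 13 kept of 30 measured, PASD1 (8.18 in siControl LTAD, 5.16 in untransfected LTAD and 4.99 in LNCaP) and SAGE1 (7.54, 5.70 and 4.72) were higher. MAGEC2 (4.69, 4.71 and 7.86) and MAGEA1 (6.15, 8.11 and 7.85) were lower. MAGEC2 was low in both LTAD arrays and MAGEA1 only on the transfected ones, with siPSF LTAD at 6.20. PASD1 and SAGE1 were kept only through siControl LTAD, and MAGEC2 and MAGEA1 only through LNCaP. The filter thus fixed the side of each, and the calls describe these members and not the list.

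In the other lists no 2-fold difference was found among 41 kept oxidative phosphorylation genes (median 0.03), 49 of the spliceosome (0.02), 14 of paraspeckles and their partners (0.05) or 12 reference genes (0.10, from B2M at -0.42 to TBP at 0.52). Of 45 kept ribosomal protein genes, RPS23 alone was 2-fold higher (median 0.02). Of 24 kept p53 targets, DDB2, a DNA damage sensor, was higher at 1.11 and PLK2, a polo-like kinase, lower at -2.18 (median 0.26). Of 26 kept metallothionein, heat shock and NRF2 genes, the chaperone HSPB8 was higher at 2.14, and MT1F and GCLC, the catalytic subunit for glutathione synthesis, were lower at -1.17 and -1.15. Of 33 kept hypoxia and glycolysis genes, LDHB, a lactate dehydrogenase subunit, was higher at 1.47 and CA12, a carbonic anhydrase, lower at -1.09. Of 26 kept apoptosis genes, TNFSF10 and the inflammatory caspase CASP4 (-2.33) were lower, and both were lower in untransfected LTAD as well. Of 20 kept AP-1 and early genes, BHLHE41 was higher at 1.37, and of 14 kept polyamine genes, SAT1 was lower. Of 11 kept matrix genes, 2 were higher, SPOCK1 at 1.94 and the protease inhibitor TIMP2 at 1.06, and 3 lower, MMP16, ADAMTS1 and MMP7. Of 8 kept antigen presentation genes, HLA-DPA1, of MHC class II, was lower at -1.68. Only 2 of 11 basal cell markers were kept, both under 2-fold apart. PLK2, TNFSF10, CASP4, HLA-DPA1 and the 3 lower matrix genes were kept only through LNCaP, which fixed their side. HSPB8, BHLHE41 and SPOCK1 were kept only through siControl LTAD, which fixed theirs.

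**Figure D4:**
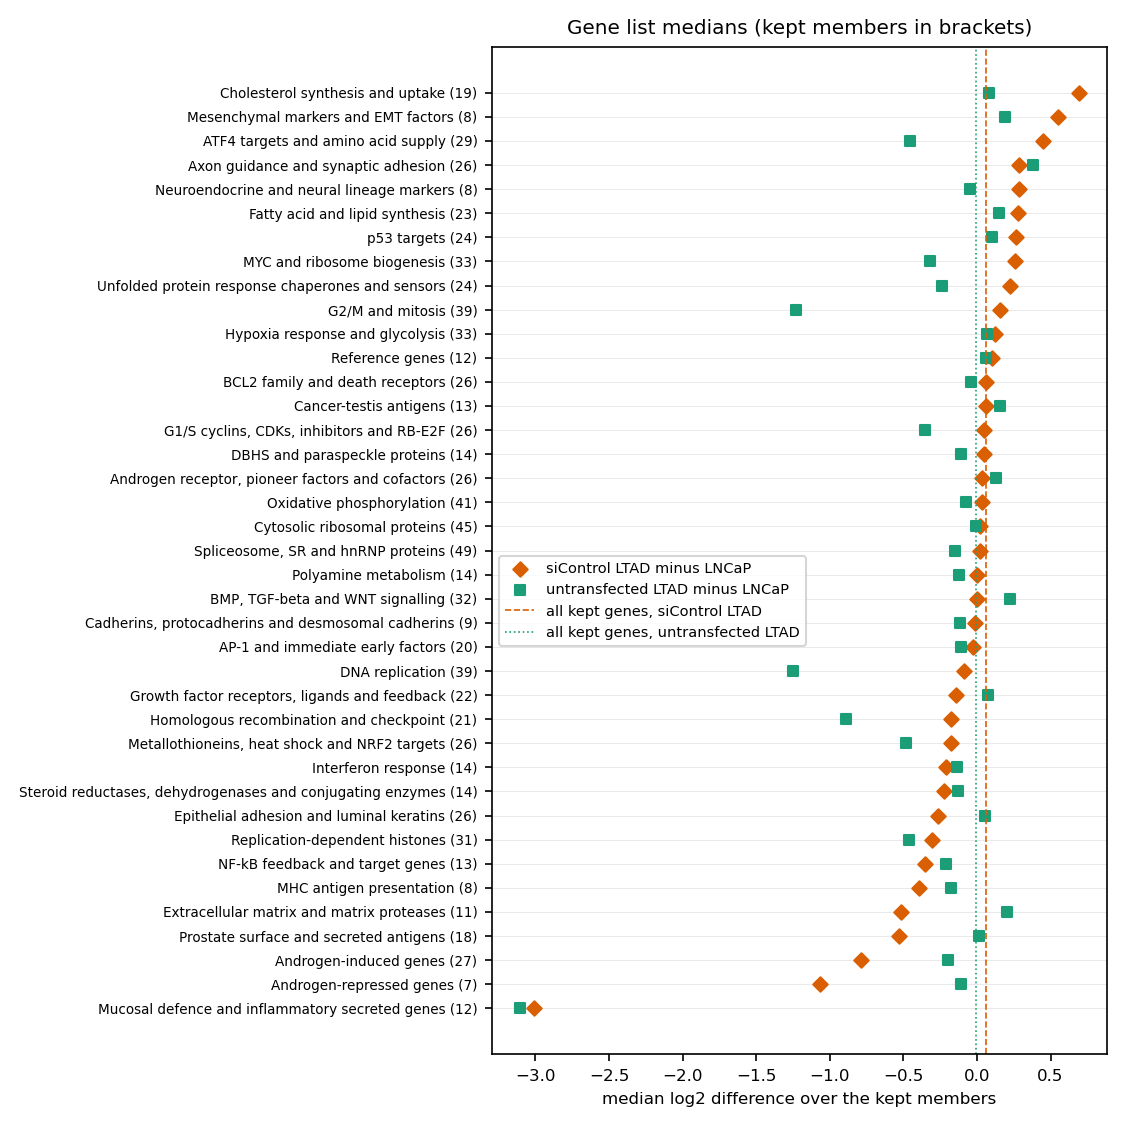
Median log2 difference from LNCaP over the kept members of each list with at least 5 kept (their number in brackets), in siControl LTAD (diamonds) and untransfected LTAD (squares), with the medians of all kept genes as dashed and dotted lines. The mucosal list lies far left, but 9 of its 12 kept members passed the filter only through LNCaP, which fixes that side in siControl LTAD; the cholesterol list has a siControl median of 0.69, and the mitosis, replication and ATF4 lists are far apart between the 2 LTAD arrays.

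Genes that lay on opposite sides of LNCaP by 2-fold or more in the 2 LTAD arrays cut across these lists. Lower in siControl LTAD and higher in untransfected LTAD were DENND1B, ID1, AGR2, IGFBP3, PLA2G2A, EPHA3 and NFKBIZ, given above. CLU, the extracellular chaperone clusterin, was another, at 5.85 in siControl LTAD, 10.07 in untransfected LTAD and 8.76 in LNCaP. So were QSOX1, a secreted sulfhydryl oxidase (9.03, 11.84 and 10.12), NAIP, an inflammasome protein (9.15, 11.27 and 10.24), RIMS1, GLYATL2, IL1RN and 2 small RNA genes. Higher in siControl LTAD and lower in untransfected LTAD were the zinc-finger genes ZNF729 (8.63, 4.11 and 6.32) and ZNF676 (10.18, 7.27 and 9.01), the centriolar gene CNTLN (9.22, 5.98 and 7.20), the glutamate transporter SLC1A3 (7.89, 5.02 and 6.15) and the glycine decarboxylase GLDC (9.58, 6.91 and 8.46). AFF3, MYBL1, GXYLT2 and the histone gene H4C3 completed the 9. These 9 were 3.47% of the higher genes, near the background of 3.54%, and are a description. In 4 of the 9 and 6 of the 15 genes on the other side, siControl LTAD and LNCaP were both at or above the filter value. For 7 of the 8 genes given here with values the siPSF reading was nearer to siControl LTAD than to LNCaP, and SLC1A3, at 6.87 in siPSF LTAD, was nearer to LNCaP.

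The differences were also set in genome order, a view chosen after the values were seen, for 9628 genes placed by symbol in the RefSeq gene table of GRCh38.p14. In 374 stretches of 25 neighbouring kept genes, 24 had a siControl median of -0.25 or lower, and all 24 were on chromosomes 1, 4, 6, 11 and 15. These chromosomes held 27.3% of the placed genes and 50.2% of the placed genes 2-fold lower. They were picked after the values were seen. A median of 0.25 or higher was found in 35 stretches. In untransfected LTAD 22 stretches were at -0.25 or lower, 7 of them shared with siControl LTAD, and 5 at 0.25 or higher. By chromosome, the largest shares of placed genes 2-fold lower were 7.08% on 4, 5.71% on 11, 5.36% on 21 and 5.26% on 15. Next came 4.71% on 6, 3.77% on 13 and 3.51% on 1. Of all 9628 genes placed, 253 were 2-fold lower, beside 283 of the 9763 kept. Most small RNA genes, olfactory receptor genes and genes without a position were left out of this view. The lowest stretch, from SUPT3H to PTP4A1 on chromosome 6, had a median of -0.59 in siControl LTAD and 0.03 in untransfected LTAD. On chromosome 11 the stretch from YAP1 to DLAT had a median of -0.41 with 8 lower genes. The median over chromosome 15 was -0.20 in siControl LTAD and -0.17 in untransfected LTAD, a lower level that both arrays held. Chromosome 19 had the highest median, 0.21 in siControl LTAD where untransfected LTAD had 0.01, and chromosome 22 had none of its 248 kept genes 2-fold lower. Neighbours on chromosome 21 were low together on the transfected array: beside ADAMTS1 and the noncoding LINC00161 (4.49 in siControl LTAD, 9.01 in untransfected LTAD and 9.99 in LNCaP), LTN1 read 7.14, 9.38 and 8.74 and RWDD2B 9.30, 10.58 and 10.38.

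**Figure D5:**
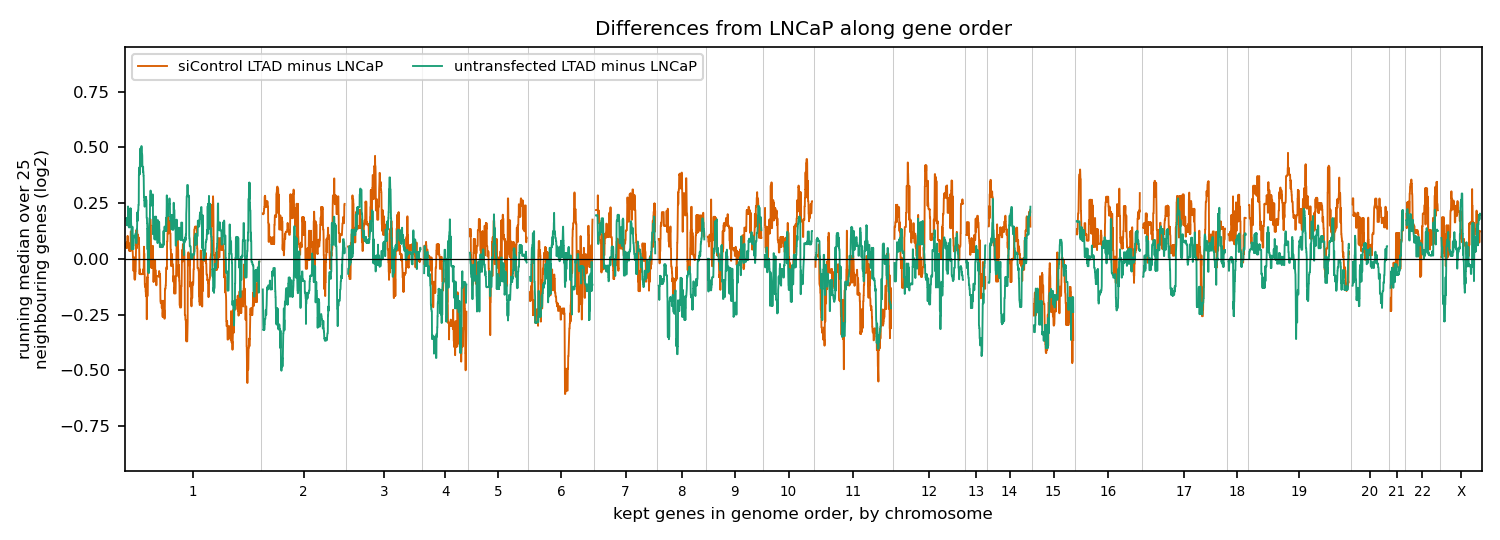
Running median of the log2 difference from LNCaP over 25 neighbouring kept genes, in genome order by chromosome, for siControl LTAD (orange) and untransfected LTAD (green). The siControl line is lowest on parts of chromosomes 1, 4, 6, 11 and 15 and above 0 along most of chromosome 19, while the lines run low together on chromosome 15.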

How the data were processed

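RNA from 4 cell samples was measured on Affymetrix whole-transcript arrays, 1 array per group. Per the submitters' processing notes, the authors obtained the deposited log2 values by RMA with the Expression Console software. Software versions, parameters, scan dates and the set of arrays normalized together are not given in the sources used here. Because the deposited columns were not on a common scale, all 33297 probe sets were quantile-normalized over the 4 arrays, which assumes equal distributions and removes any true overall shift. Of the probe sets, 19460 had 1 symbol, 1754 several and 12083 none, and those with several named no gene. Symbols were updated by Entrez ID to RefSeq (GRCh38.p14), which matched 19429. The brightest probe set by mean stood for each of 769 genes with several.

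Genes were kept at or above 7.23, the median gene value, in siControl LTAD or LNCaP. Differences were counted at 2-fold, with no test, since each group had 1 array, and that number limits precision. Named genes were KLK3, LCN2, SFPQ, the 20 highest and lowest of all kept genes and of those above the filter on both arrays, and examples from 41 lists. The genes on opposite sides of LNCaP, the genes on chromosome 21 and the genome-order view were picked after their values were seen. Small RNA genes were not named. The comparison, members and lists were chosen with earlier results of these data known. Calculations used Python 3.11.15, numpy 2.4.6 and pandas 2.3.3, and counting was checked on simulated data. Other scales, filters and probe set rules were tried as alternatives.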

Additional observations from a re-analysis of the deposited data

How the results depend on the processing

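On the deposited values 46 genes were 2-fold higher and 2499 lower, with 38 and 988 on the same side in untransfected LTAD and 15 and 161 of these at 2-fold. With arrays centred on their medians 466 were higher. With no filter 403 were higher and 431 lower, 267 and 301 on the same side, and 132 lower at 2-fold in both. With a 75th percentile filter these were 125, 162, 77 and 106, with 23 and 44 at 2-fold in both. The scaling alternatives shift all genes and the filters change how many are tested. Normalizing the compared arrays alone, or averaging probe sets, kept every count within 1.5 times, and same-side counts were not run for the former.

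Of 144 named genes, none that was 2-fold apart changed sign under the scaling and probe set alternatives, while SFPQ, at 0.40, did so on the deposited values (-0.21). On the deposited values 33 were no longer 2-fold apart, and on centred values 7. List medians relative to all kept genes changed sign with no filter for androgen-repressed genes (0.0766) and steroid enzymes (0.0326). They did so with the 75th percentile filter for androgen-repressed (1.18), interferon (0.31), axon guidance (-0.17) and basal genes (-0.0223), and with the compared arrays alone for basal genes (-0.0380). The cause was not tested beyond the number of members each filter leaves. Of 23 chromosome medians, an alternative added after seeing the data, 3 moved by over 0.1 with no filter and none otherwise.

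No paired analysis was possible because each group had 1 array, which also left no array to omit. Signal near background limits folds: 8726 of the 9763 genes were above the filter on both arrays.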
